A study of Homo sapiens with 6 samples.

Results

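The 14-3-3 proteins are a family of small adaptors that bind other proteins at phosphorylated serine or threonine. In human cells they are encoded by 7 genes: YWHAB (14-3-3 beta), YWHAE (epsilon), YWHAG (gamma), YWHAH (eta), YWHAQ (theta, also called tau), YWHAZ (zeta) and SFN (sigma). The members were matched by these symbols, and all 7 were found among the 22934 gene symbols of the series. Each also had an FPKM (an expression unit in which fragment numbers are divided by transcript length and sequencing depth) of at least 1 in both groups, as had 12033 symbols in all.

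14-3-3 proteins work as dimers, and each dimer can hold a pair of phosphorylated sites in 1 client or bridge 2 clients. Binding can keep a client in the cytoplasm, hide a catalytic or localisation site, or protect its phosphate from phosphatases. Among the clients are RAF kinases, the death factor BAD, CDC25 phosphatases, FOXO and YAP transcription factors, and tristetraprolin (TTP), which binds 14-3-3 after it is phosphorylated by the p38 effector kinase MK2. TTP, encoded by ZFP36, binds AU-rich elements in the 3′UTR of mRNAs and promotes their deadenylation and decay. SFN differs from the other members in being largely an epithelial gene.

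RNA-Seq was performed on PC-3, an established line derived from a human prostate adenocarcinoma metastasis. All cells carried the rtTA2 transactivator of the Tet-On system from a first retrovirus and had been selected in G418. The control cells (tdTom) then received pRetroX-Tight-pPGK-tdTomato, the other cells (TTP-tdTom) received pRetroX-Tight-TTP-pPGK-tdTomato, and both were sorted for tdTomato, so each is a sorted transduced population of 1 line. Both groups, of 3 samples each, were given 300 ng/ml doxycycline (Dox) for 4 hours. The deposited table holds 1 FPKM value per group at each locus. The spread between samples is therefore not given, no test was made, and whether any difference is larger than the replicate error cannot be said from these values.

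ZFP36, on chromosome 19 of GRCh37 from 39897487 to 39900052, was at 5.56 FPKM in tdTom and 5.54 FPKM in TTP-tdTom. The value at this endogenous locus was thus not higher in the group labelled TTP-tdTom. TTP was added on a retrovirus, and it was not analysed here whether fragments of the transgene reached this locus. This value alone therefore does not show whether TTP was raised in these cells, and the study's other assays of TTP mRNA and protein were not used here. Of the epithelial markers, KRT18, KRT19, KRT8 and EPCAM lay between 15.1 and 98.2 FPKM in both groups, while CDH1 was at 0.119 FPKM in tdTom and 0.390 FPKM in the group labelled TTP-tdTom. The prostate markers KLK2 and FOLH1 were under 1 FPKM in both groups, and KLK3 and TMPRSS2 were between 0.681 and 2.53 FPKM. Summed FPKM of the 5 fibroblast markers was 6.12 in tdTom and 7.45 in the group labelled TTP-tdTom, with COL1A2 listed at 0 in tdTom, and that of the 4 endothelial markers was 8.68 and 5.44, most of it KDR. Of the 5 blood cell markers, CD68 lay at a locus shared by 6 symbols and the other 4 were under 1 FPKM.

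The comparison asked how the mRNA of each 14-3-3 gene differed between PC-3 cells with the TTP transgene and control cells under the same Dox treatment. YWHAG was the member with the lowest relative level in the group labelled TTP-tdTom, at 46.1% of its control level, followed by YWHAZ at 62.5% and YWHAQ at 69.3%. YWHAE and YWHAB were at 84.6% and 85.2% of control, which is where the middle of all symbols lay. YWHAH, at 99.3%, and SFN, at 105%, were close to their control levels. In these bulk samples, fewer cells carrying an mRNA and less mRNA per cell cannot be told apart.

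AU-rich motifs in the 3′UTRs are shown first, because TTP binds such elements and because the members differ widely in them. The heptamer UAUUUAU is a preferred TTP motif and contains the pentamer AUUUA at its centre. In the longest 3′UTR annotated for each gene in GENCODE release 29 (build GRCh38), read 5′ to 3′ on the mRNA strand, YWHAE alone among the members had a UAUUUAU, a single copy. Of the 10387 expressed symbols matched to such a 3′UTR, 36.6% had at least 1 copy. The YWHAE site is shown with the heptamer in capitals and 10 bases on each side, its first capital being base 1136 of the 1175 bases after the stop codon.
YWHAE 1136: agcaacauggUAUUUAUuuuaaucauu

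The sites of YWHAG and YWHAH are shown because their coding sequences were the most alike of any pair in the family while their levels in the group labelled TTP-tdTom were far apart. YWHAG had 6 AUUUA copies in a 3′UTR of 2783 bases, and YWHAH had 3 in 1448 bases. The pentamer is in capitals, and the number is the position of its first base after the stop codon.
YWHAG 274: ucugucucuaAUUUAacuuauugcu
YWHAG 1559: ucuuuguuuuAUUUAggcaagaaga
YWHAG 1932: gcuuucccuaAUUUAucuucauguc
YWHAG 1989: uuuggaaaugAUUUAcuggaauuac
YWHAG 2116: gagacuugauAUUUAagcagcuuga
YWHAG 2355: uuuuuuuuuaAUUUAauuuuuccuu
YWHAH 973: uacaguugauAUUUAaaagauccau
YWHAH 986: uaaaagauccAUUUAaaacaagcug
YWHAH 1289: agaaucauggAUUUAuuuuuuguaa

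The gamma gene YWHAG lies on chromosome 7 of GRCh37 from 75956108 to 75988342. Its level was 20.1 FPKM in tdTom and 9.27 FPKM in the group labelled TTP-tdTom, a 2.17-fold lower value and a log2 ratio of -1.12. No more than 5.58% of expressed symbols had a lower log2 ratio. This was the single member past 2-fold, a size reached in the lower direction by 7.92% of expressed symbols.

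The zeta gene YWHAZ, a broadly expressed member often raised in tumours, lies on chromosome 8 from 101930804 to 101966361. It had 164.0 FPKM in tdTom and 102.5 FPKM in the group labelled TTP-tdTom, 1.60-fold lower (log2 ratio -0.68). A second YWHAZ locus with the same coordinates held 1.13 and 0.799 FPKM, so that adding it left the ratio at -0.68. The theta gene YWHAQ, on chromosome 2 from 9724106 to 9771106, had the highest level of the family in both groups, at 219.6 FPKM in tdTom and 152.2 FPKM in the group labelled TTP-tdTom. Its 1.44-fold lower value (log2 ratio -0.53) was short of the 1.5-fold mark used to count members, though no more than 25.4% of expressed symbols had a lower ratio.

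The epsilon gene YWHAE lies on chromosome 17 from 1247834 to 1303556. Its levels were 152.3 FPKM in tdTom and 128.8 FPKM in the group labelled TTP-tdTom, a log2 ratio of -0.24. The beta gene YWHAB, on chromosome 20 from 43514344 to 43537161, had 122.5 and 104.5 FPKM and a log2 ratio of -0.23. Both ratios lay at the median of all 12033 expressed symbols, which was itself -0.24.

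The eta gene YWHAH, on chromosome 22 from 32329507 to 32353590, had nearly equal levels of 22.8 FPKM in tdTom and 22.6 FPKM in the group labelled TTP-tdTom (log2 ratio -0.01). SFN, on chromosome 1 from 27189633 to 27190947, was the single member with a higher value in the group labelled TTP-tdTom, 16.7 against 15.9 FPKM (log2 ratio 0.07). Relative to the median of all symbols the log2 ratio was 0.23 higher for YWHAH and 0.31 higher for SFN. On the same scale YWHAE and YWHAB were at -0.00041 and 0.01, and YWHAQ, YWHAZ and YWHAG at -0.29, -0.44 and -0.87. The sign of YWHAB thus changed with this centring, and that of YWHAH changed with it and with rescaling of the groups to equal sums.

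**Figure D1:**
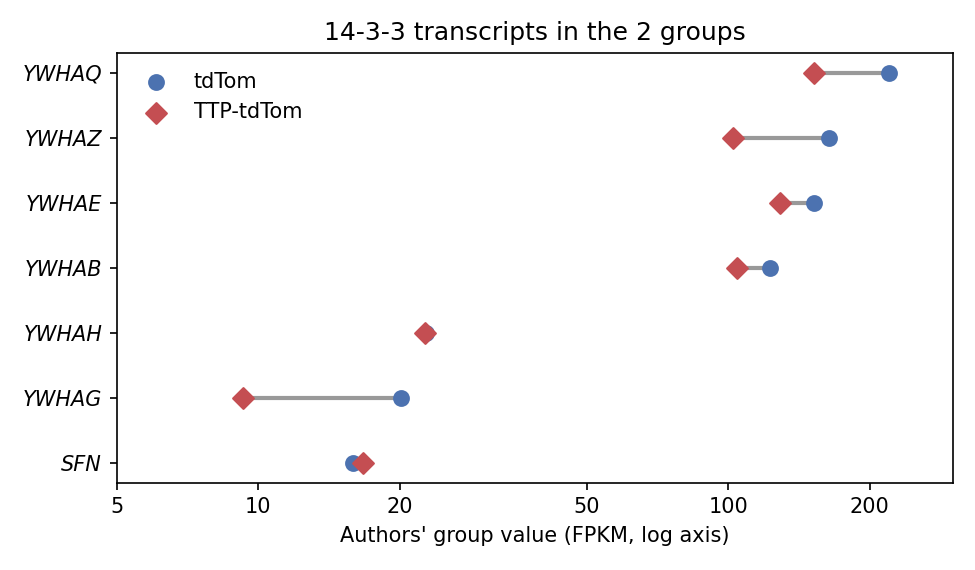
The authors' FPKM value of each 14-3-3 gene on a log axis, circles for tdTom and diamonds for TTP-tdTom, joined by a grey line and ordered by the tdTom level. YWHAG has the longest line (20.1 to 9.27 FPKM), and the symbols of YWHAH and SFN overlap; there are no error bars because the table holds 1 value per group.

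Counted at a lower value by 1.5-fold or more, 2 of the 7 members, YWHAG and YWHAZ, passed, or 28.6%. The same held for 22.4% of all expressed symbols, so the share among the members was near the background. After centring on the median of all symbols, YWHAZ was short of the mark at -0.44 and 1 of 7 members, YWHAG, passed it, against 12.9% of all symbols. No member was higher by 1.5-fold or more, against 1.07% of expressed symbols. The median log2 ratio of the members was -0.24, the same to 2 decimals as that of all symbols. The family as a list thus sat at the middle of the data, while its members spanned 1.18 log2 units. For comparison, the middle 50% of all symbols lay between -0.54 and -0.06, an interval that left out YWHAG and YWHAZ on the low side and YWHAH and SFN on the high side.

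**Figure D2:**
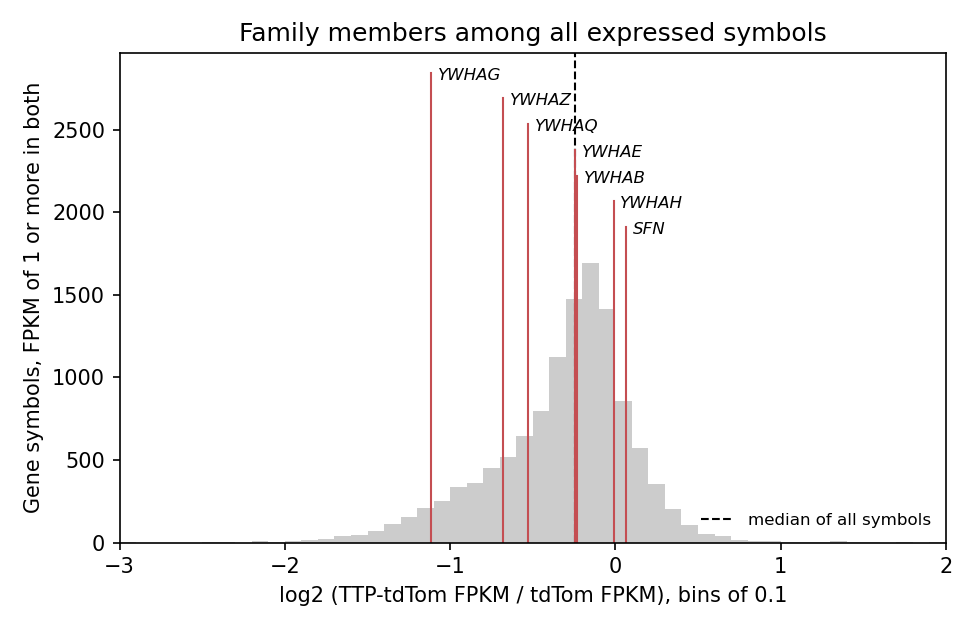
Histogram of the log2 ratio of TTP-tdTom over tdTom FPKM for 12033 symbols with at least 1 FPKM in both groups, in bins of 0.1, with red lines at the 7 members and a dashed line at the median of all symbols. YWHAE and YWHAB stand at the median (-0.24), YWHAG in the lower tail at -1.12 and SFN above 0 at 0.07; line heights only keep the names apart.

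The levels fell into a high and a low set. YWHAQ, YWHAZ, YWHAE and YWHAB were all above 100 FPKM in both groups, and YWHAH, YWHAG and SFN were all below 25 FPKM. In tdTom the order was YWHAQ, YWHAZ, YWHAE, YWHAB, YWHAH, YWHAG and SFN, whereas in the group labelled TTP-tdTom it was YWHAQ, YWHAE, YWHAB, YWHAZ, YWHAH, SFN and YWHAG. YWHAZ thus stood next to the top in tdTom and lowest of the abundant members in the group labelled TTP-tdTom, and YWHAG was last of the family in that group. Among all expressed symbols YWHAG ranked 3523 in tdTom and 5189 in the group labelled TTP-tdTom. Without the spread between samples, whether neighbours in this order differ, such as YWHAZ and YWHAB at 102.5 and 104.5 FPKM, is not known.

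Members of similar level had different ratios. Among the 3395 symbols between 10 and 30 FPKM in tdTom, bounds chosen after the values were seen, the median log2 ratio was -0.31 and the middle 50% ran from -0.66 to -0.12. YWHAG lay below that interval, and YWHAH and SFN lay above it. Among the 436 symbols between 100 and 250 FPKM the median log2 ratio was -0.25 and the middle 50% ran from -0.49 to -0.13. YWHAZ and YWHAQ lay below that interval and YWHAE and YWHAB within it.

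Summed over the 7 genes, the 14-3-3 level was 717 FPKM in tdTom and 536 FPKM in the group labelled TTP-tdTom, or 74.8% of control (log2 ratio -0.42, or -0.18 after centring on the median of all symbols). The sum was further below control than the members' median, because it is weighted by level and the 2 most abundant members in tdTom were both among the lower ones. The joint share of YWHAQ and YWHAZ in the summed FPKM was 53.5% in tdTom and 47.5% in the group labelled TTP-tdTom.

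The share of YWHAZ alone was 22.9% in tdTom and 19.1% in the group labelled TTP-tdTom, and that of YWHAG was 2.80% and 1.73%. YWHAE had the largest gain in share, from 21.2% to 24.0%, although its own FPKM was lower. The 4 abundant members together held 91.8% of the sum in tdTom and 90.9% in the group labelled TTP-tdTom. The ratio of YWHAH to YWHAG, closest in sequence, was 1.13 in tdTom and 2.44 in the group labelled TTP-tdTom.

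**Figure D3:**
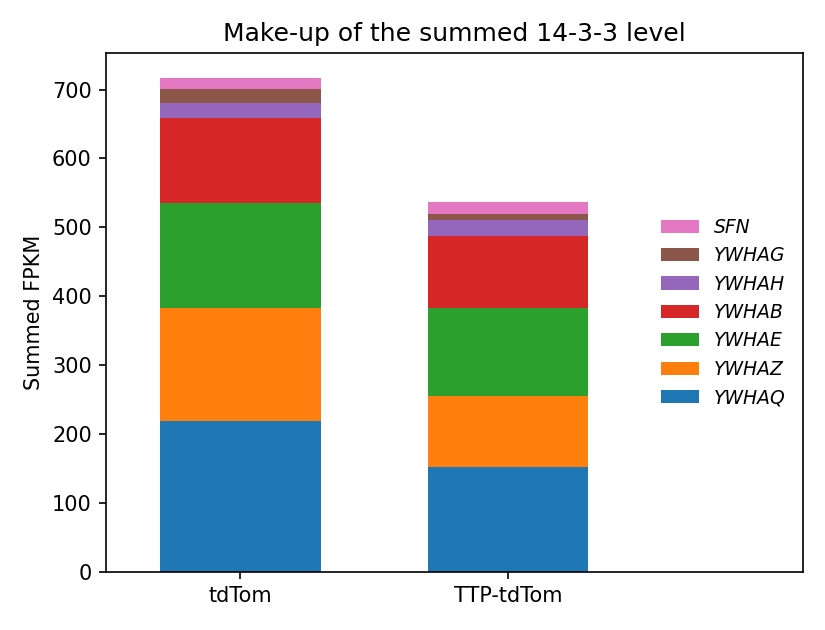
Stacked FPKM of the 7 members in tdTom and TTP-tdTom, 1 bar per group. The total is 717 FPKM in tdTom and 536 FPKM in TTP-tdTom, and the YWHAQ and YWHAZ segments at the foot of the bars hold 53.5% and 47.5% of it.

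The members also differed in how many AUUUA pentamers their longest annotated 3′UTR held, a count added after the ratios had been seen. YWHAZ, whose 3′UTR of 4168 bases was the longest, had 13 copies, YWHAG had 6 and YWHAQ had 5 in only 1314 bases. YWHAB and YWHAH had 3 copies each, YWHAE had 2, of which 1 lay inside the heptamer, and SFN had none in 498 bases. The 3 members with the lowest log2 ratios were thus the 3 with the most pentamers, but within them YWHAG had fewer copies than YWHAZ and the lower ratio. Counted per kilobase, YWHAQ had 3.81 copies, YWHAZ 3.12, YWHAG 2.16 and YWHAH 2.07, so that YWHAG and YWHAH were alike in density.

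Among all matched symbols, 74.4% had at least 1 AUUUA and the median was 2 copies. The median log2 ratio was -0.11 for the 2656 symbols with no AUUUA, -0.30 for the 1385 with 3 or 4 copies, -0.43 for the 1986 with 5 to 9 and -0.62 for the 1641 with 10 or more. For symbols that had 5 to 9 copies and no UAUUUAU, as YWHAG and YWHAQ did, the median was -0.36 over 752 symbols. For symbols with 10 or more copies and no UAUUUAU, as YWHAZ did, it was -0.60 over 259 symbols. YWHAZ was therefore near the median of its class, YWHAQ somewhat below, and YWHAG below the lower quartile of -0.67. Symbols with exactly 1 UAUUUAU had a median of -0.36, and YWHAE was above it, but it was below the median of -0.18 over the 2719 symbols with 1 or 2 AUUUA. YWHAB was within the middle 50% of the class with 3 or 4 copies, from -0.61 to -0.10, and YWHAH was above it. SFN was above the upper quartile of 0.02 of the symbols with no AUUUA.

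The members also differed in the base composition of the 3′UTR. GC content was lowest in YWHAQ at 35.8%, lay between 38.1% and 43.9% in YWHAZ, YWHAB, YWHAE, YWHAG and YWHAH, and was 63.1% in SFN, against a median of 42.1% over all matched symbols. Across these symbols the median log2 ratio was -0.62 where GC was under 35% and -0.08 where it was 60% or more, the class of SFN. SFN, at 0.07, was above the upper quartile of 0.04 of that class. Between 35% and 40%, the class of YWHAQ, YWHAZ, YWHAB and YWHAE, the median was -0.40 and the middle 50% ran from -0.71 to -0.19, an interval that held all 4. YWHAG and YWHAH, with 41.8% and 43.9%, fell in the same class, from 40% to 45%, whose median log2 ratio was -0.22 and whose middle 50% ran from -0.43 to -0.07. YWHAG was below that interval and YWHAH above it. The part of base composition and 3′UTR length in these differences was not tested, and which 3′UTR PC-3 cells use was not analysed here.

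**Figure D4:**
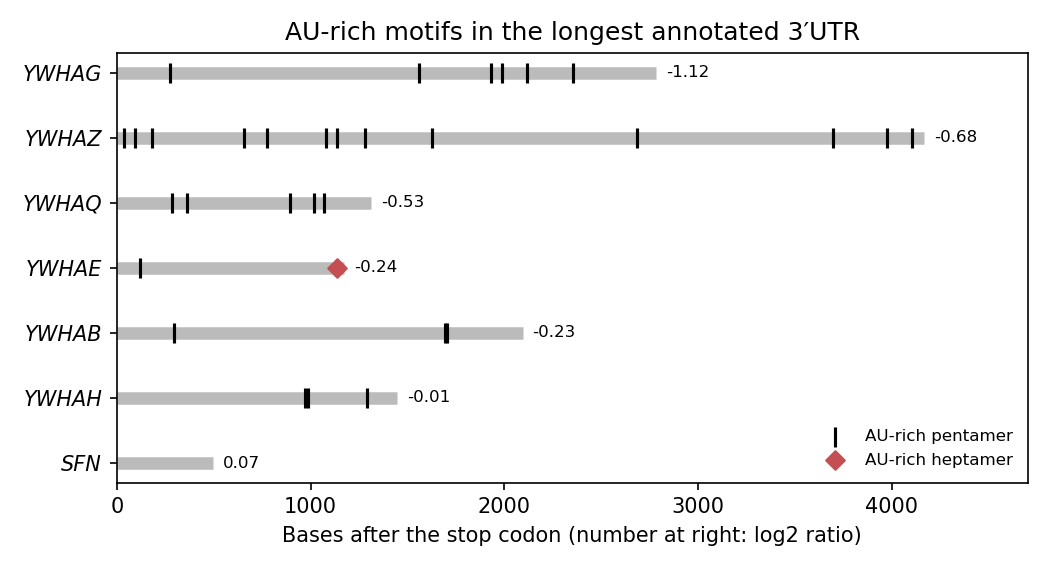
Longest annotated 3′UTR of each member as a grey bar drawn to scale in bases after the stop codon, with ticks at AU-rich pentamers (AUUUA) and a diamond at the single AU-rich heptamer (UAUUUAU), ordered by the log2 ratio printed at the right. The upper 3 bars (YWHAG, YWHAZ and YWHAQ) carry 6, 13 and 5 pentamers, and the diamond is in YWHAE, whose log2 ratio is -0.24.

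The members resemble each other in sequence, which bears on how their fragments could be assigned. Over the 21 pairs, identity of the coding sequences ranged from 63.1% between YWHAE and SFN to 78.8% between YWHAG and YWHAH. Processed copies in the genome are closer still. RefSeq lists 29 pseudogenes of the family, 10 each for YWHAZ and YWHAQ, 7 for YWHAE and 2 for YWHAB, and none for YWHAG, YWHAH or SFN. Those annotated in GENCODE that cover at least 80% of the coding sequence were up to 97.6% identical to it for YWHAZ, up to 96.1% for YWHAE, up to 93.1% for YWHAB and 85.6% for YWHAQ.

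Fragments from these 4 genes may have been shared with such copies, which was not tested. Only 2 pseudogenes, both of YWHAE, had a name in the table. They were at 0.0926 and 0.277 FPKM in tdTom and at 0.198 and 0.332 FPKM in the group labelled TTP-tdTom, far below YWHAE itself. No other locus overlapped YWHAB, YWHAE, YWHAG, YWHAQ or SFN. The YWHAH coordinates were shared with a locus of C22orf24, at 2.55 and 1.90 FPKM.

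The 14 nearest expressed loci, 1 on each side of each member, had a median log2 ratio of -0.18. Of these 14, 2 were lower by 1.5-fold or more, CRK and TAF1B, against 22.4% of all expressed symbols. YWHAG stood between HSPB1 (-0.21) and ZP3 (-0.29), both near the median of all symbols. CRK, an adaptor gene beside YWHAE, had a log2 ratio of -1.13, where YWHAE had -0.24 and ABR on its other side had -0.07. Beside YWHAQ (-0.53), ADAM17 was at -0.42 and TAF1B at -0.77. Beside YWHAZ (-0.68), PABPC1 was at -0.28 and ZNF706 at -0.53. Beside SFN (0.07), ZDHHC18 was at -0.09 and GPATCH3 at 0.28, the highest of the 14. The neighbours of YWHAB and YWHAH lay between -0.14 and 0.09.

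The proteins that 14-3-3 binds, with the kinases and phosphatases that write and remove their binding sites and the known regulators of SFN, formed 10 lists of 83 genes, of which 74 had at least 1 FPKM in both groups. Of these 74, 17 were lower by 1.5-fold or more, or 23.0%, near the 22.4% of all expressed symbols, and none was higher by that much. Their median log2 ratio was -0.21. At 2-fold, 8 of the 74 were lower, all of them named here, against 7.92% of all expressed symbols. After centring on the median of all symbols, 10 of the 74 were lower by 1.5-fold or more, against 12.9% of all symbols.

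Of 4 RAF clients none passed 1.5-fold, and log2 ratios ran from -0.45 for BRAF to 0.05 for ARAF. None of 3 cell death clients passed, BAX being lowest at -0.40 and the apoptosis kinase gene MAP3K5 highest at -0.03. In the cell cycle list 3 of 7 were lower by 1.5-fold or more, against 22.4% of all expressed symbols. CDK1, the mitotic cyclin-dependent kinase that CDC25 phosphatases activate, had 102.2 FPKM in tdTom and 37.8 FPKM in the group labelled TTP-tdTom, a log2 ratio of -1.44 and the lowest of all 74. CDC25C, a CDC25 phosphatase that 14-3-3 holds in the cytoplasm, was at -0.06.

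Among 10 transcription clients 2 were lower by 1.5-fold or more, against 22.4% of all expressed symbols, with a list median of -0.00097. WWTR1, which encodes the YAP relative TAZ, had 161.2 and 68.7 FPKM (log2 ratio -1.23), and HDAC5, a class II histone deacetylase kept in the cytoplasm by 14-3-3, was highest at 0.18. None of 7 insulin and mTOR clients passed, with IRS1 lowest at -0.41 and PFKFB2 highest at -0.12. In the mRNA decay list, 2 of 4 were lower. The lowest was ZFP36L2, a TTP relative, at 53.9 and 22.7 FPKM (log2 ratio -1.25), and the highest was ZFP36 itself at -0.0044. Of 5 cytoskeleton and polarity clients 1 passed, RND3, whose product acts on the actin cytoskeleton, at -0.62, and CBY1 was highest at 0.19.

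Of 25 kinases 7 were lower by 1.5-fold or more, or 28.0%, near the 22.4% of all expressed symbols. PRKACB, a catalytic subunit of protein kinase A, had 8.04 and 3.33 FPKM (log2 ratio -1.27). PRKAA1 and PRKAA2, the catalytic subunits of AMPK, were both at -1.11, with 53.0 and 24.5 FPKM for PRKAA1 and 6.47 and 2.99 FPKM for PRKAA2. LATS1, a Hippo kinase that makes the 14-3-3 site of YAP, was at -1.07, at a locus shared with another symbol. The highest kinase was CHEK2 at 0.16, also at a shared locus.

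Of 5 phosphatase catalytic subunits 2 were lower by 1.5-fold or more, against 22.4% of all expressed symbols. PPP2CB of PP2A was lowest at -1.27 (13.5 and 5.57 FPKM) and PPP1CA highest at -0.07. None of 4 SFN regulators passed. TP73, a transcription factor gene, was highest at 0.17, at 1.15 FPKM in tdTom and 1.29 FPKM in the group labelled TTP-tdTom.

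**Figure D5:**
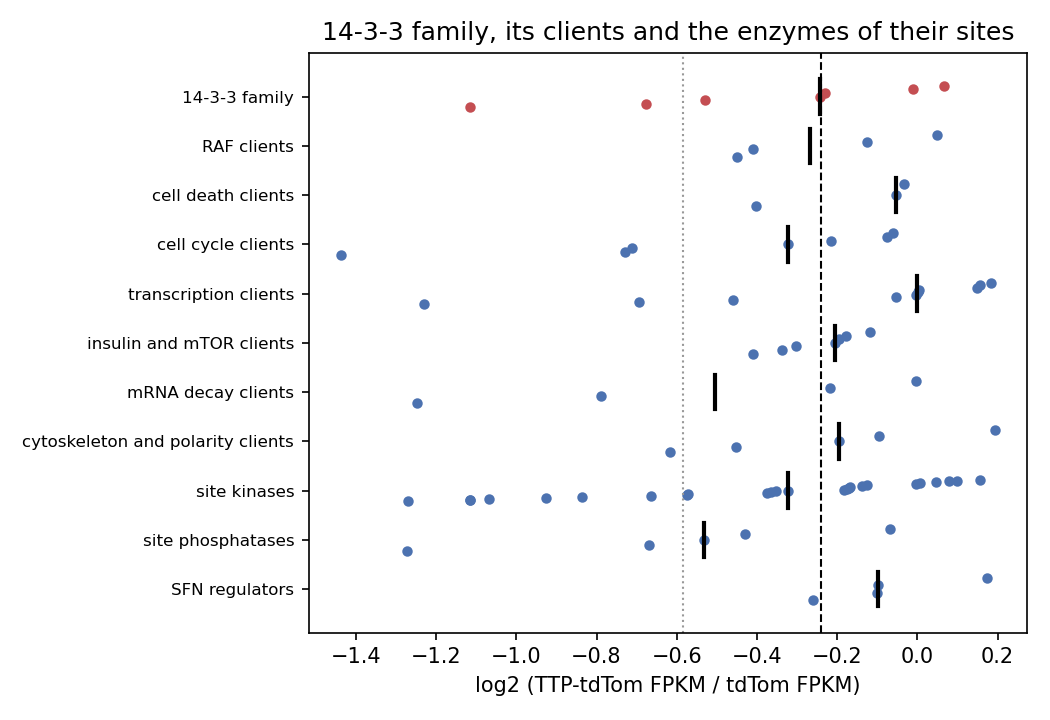
Log2 ratio of TTP-tdTom over tdTom FPKM for each gene with at least 1 FPKM in both groups, red for the 14-3-3 genes and blue for 10 lists of clients, kinases, phosphatases and SFN regulators; black bars are list medians, the dashed line the median of all symbols and the dotted line 1.5-fold lower. CDK1 is the point farthest left at -1.44, and the medians of the lists run from -0.53 for the phosphatases to -0.00097 for the transcription clients.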

How the data were processed

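RNA-Seq libraries of 6 PC-3 samples, 3 per group, were strand-specific and paired-end. Per the submitters' processing notes and methods, reads were aligned with TopHat2 2.0.13 to Hs37D5 (GRCh37 with decoys) and assembled and compared with Cufflinks 2.2.1. The authors' deposited table gives 1 FPKM value per group at each of 406165 loci, normalized by the authors to transcript length and library size. It holds no counts, so the depth reached is unknown (the methods state only the read pairs aimed for) and no interval is given. The authors' fold changes, test statistics, p-values and q-values were not used. Samples were grouped by their titles.

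Where loci shared a symbol, that with most RefSeq names, then highest FPKM, was taken. Coordinates are counted from 1. Ratios are log2 of TTP-tdTom over tdTom FPKM, with no pseudocount. All members were named. From other lists the lowest, the highest, those past 2-fold and ZFP36 were named. The members and lists were chosen with earlier results of these data known. 3′UTRs came from GENCODE 29 by symbol (86.3% of expressed symbols matched), and coding sequences were aligned with Biopython 1.88. Pseudogene names came from RefSeq. Functions were tested on simulated data (Python 3.11.15, numpy 2.4.6, pandas 2.3.3). Protein sequences were not used here, and 2 list genes are not reported here. Alternatives are given in the closing section.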

Additional observations from a re-analysis of the deposited data

How the results depend on the processing

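No test was made, so the values were compared directly over 10 alternative settings. Centring on the median of all symbols left 1 member lower by 1.5-fold or more (YWHAG), a members' median log2 ratio of -0.00041, a summed FPKM log2 ratio of -0.18 and 10 client and enzyme genes lower, against 12.9% of all symbols; YWHAB then had 0.01 and YWHAH 0.23. Rescaling both groups to 1 total over named loci gave a members' median of -0.19 and a summed log2 ratio of -0.37, and turned YWHAH to 0.04. At 2-fold 1 member and 8 client and enzyme genes were lower, against 7.92% of all symbols, and at a mark of 0.32 on the log2 scale 3 members and 33 such genes, against 40.6% of all symbols. With at least 10 FPKM in both groups YWHAG left the set, so that 1 of 6 members and 9 of 32 list genes were lower by 1.5-fold or more, against 19.3% of all symbols. Pseudocounts of 0.1 and 1, no minimum FPKM, the locus of highest FPKM and FPKM summed over loci kept 2 members lower. YWHAG stayed between -1.12 and -0.87, and YWHAZ between -0.68 and -0.44. No paired analysis was possible because the table holds 1 value per group, and for the same reason no replicate could be left out.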
